A study of Homo sapiens with 12 samples.

Results

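SCD and OLMALINC, 2 neighbouring genes on chromosome 10, were followed through 12 RNA sequencing libraries from 2 human ovarian cancer cell lines. They are 2 of the 19251 genes listed in every library, found by Ensembl identifier and symbol, and both were among the 17616 genes with enough signal to test. They were selected on their measured ascites contrasts in these same libraries, so their values are given as a description and no test of them is reported. The lines are CAOV3, labelled as epithelial high grade serous, and TOV21G, labelled as epithelial clear, both of wild-type genotype. Each group held 3 libraries: untreated CAOV3, CAOV3 with ascites, untreated TOV21G and TOV21G with ascites. All cultures started from 250000 cells in 1.5 mL of medium with 10% fetal bovine serum, so the controls were also grown in serum. The treated wells received 150 µL of ovarian cancer ascites, fluid that gathers in the abdomen, for 16 h, a share given as 10%. No addition to the control wells was described. Each line is a single established line, and nothing says whether the 3 libraries of a group came from separate cultures, so p-values measure only the spread between these samples, which may be technical.

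SCD encodes stearoyl-CoA desaturase, an enzyme of the endoplasmic reticulum membrane that places a double bond in saturated fatty acids and so makes oleate and palmitoleate, the main monounsaturated fatty acids of membranes and stored lipid. Its transcription is driven by the sterol regulatory element binding proteins, SREBPs, which are released from the membrane when sterols are scarce, and by the liver X receptor, and it is repressed by polyunsaturated fatty acids. OLMALINC is a long non-coding RNA first named for its role in oligodendrocyte maturation and later studied in liver cells as a regulator of its neighbour SCD.

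Both genes lie on the plus strand. In GENCODE release 29 on GRCh38, SCD (ENSG00000099194, protein coding, 1 annotated transcript) spans chromosome 10 from 100347124 to 100364834. OLMALINC (ENSG00000235823, annotated as a lincRNA with 6 transcripts) spans 100373513 to 100454043. The interval between the end of SCD and the start of OLMALINC is 8678 bases. No annotated gene overlaps SCD, and a small Y RNA gene on the minus strand, not among the genes analysed here, lies within OLMALINC. Whether the libraries kept strand is not given in the sources used here. A processed pseudogene of SCD, SCDP1, is annotated on chromosome 17 and was not analysed here, so reads shared with it are uncertain.

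The stretches just upstream of the annotated starts of both genes are shown. Counts per gene do not tell where the measured transcripts begin. The stretches come from the RefSeq promoter table (GRCh38.p14, plus strand, both genes matched), which gives 250 bases before and 50 after each RefSeq start. They are printed up to the base before the GENCODE start. The RefSeq start lies 109 bases after the GENCODE start in SCD and 63 bases after it in OLMALINC. The SCD stretch is chr10:100346983-100347123, 141 bases, and the OLMALINC stretch is chr10:100373326-100373512, 187 bases. Capitals mark each CCAAT box, the letters bound by the factor NF-Y, which often works beside SREBPs.
SCD: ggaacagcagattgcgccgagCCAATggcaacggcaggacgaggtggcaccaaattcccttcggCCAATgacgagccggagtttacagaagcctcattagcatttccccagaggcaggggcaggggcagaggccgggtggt
OLMALINC: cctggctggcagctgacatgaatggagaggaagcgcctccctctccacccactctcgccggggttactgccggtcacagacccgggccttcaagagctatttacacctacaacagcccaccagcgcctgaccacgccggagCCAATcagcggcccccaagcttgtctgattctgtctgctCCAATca

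Each window held 2 CCAAT boxes, all 4 of them on the plus strand when both strands were searched. Those of SCD begin 229 and 186 bases before its RefSeq start and are 43 bases apart, and those of OLMALINC begin 109 and 70 bases before its start and are 39 bases apart. At least 1 CCAAT was present in 34.6% of 35116 promoter windows of the same length, and at least 2 in 10.8%. The windows differed in other letters. The GC box GGGCGG was found 2 times in SCD, both on the minus strand, and 0 times in OLMALINC, against 45% of windows with at least 1. Those of SCD begin 33 and 11 bases before its RefSeq start, beyond the stretch printed. The E-box CANNTG was found 0 times in SCD and 1 time in OLMALINC, against 68.7% of windows. The DR4 direct repeat bound by the liver X receptor, searched in its consensus form, was in neither window. These are matches of letters in 300-base windows and say nothing of binding.

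Reads counted in the listed genes came to 26697609 to 34491304 per library. No pair of replicates agreed within the sampling of reads (chi-square per degree of freedom 1.81 to 22.6). Epithelial markers (EPCAM, CDH1, KRT7, KRT8, KRT18, KRT19 and CLDN4, all 7 listed) summed to 156825 to 191764 normalised counts in CAOV3 libraries and 10723 to 12783 in TOV21G. PAX8, a marker of serous and clear cell tumours, averaged 19.1 in untreated CAOV3 and 7032 in untreated TOV21G. WT1, a serous marker, averaged 4.59 and 228. Among markers of other cells that ascites could carry, 3 of 7 leukocyte genes were among those analysed (summed 104 to 144 in CAOV3, 41.9 to 65.4 in TOV21G), and PTPRC, CD3E and CD68 were not. Of 5 mesothelial genes 4 were (47 to 76.2 and 583 to 659), of 7 fibroblast genes 6 (5328 to 6419 and 11261 to 13084), of 4 endothelial genes 1 (5.11 to 11.3 and 0 to 3.58), of 5 adipocyte genes 3 (3028 to 3635 and 4.42 to 10.5), and of 4 red blood cell genes 0. For none of these lists did all ascites libraries lie above the controls in both lines, and the part of such RNA in the results was not tested.

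SCD was abundant in CAOV3 and far lower in TOV21G. The untreated CAOV3 libraries held 43713, 42182 and 45139.6 normalised counts, and the ascites libraries 32248, 31979 and 32970. The untreated TOV21G libraries held 1760.3, 1607 and 1674, and the ascites libraries 916, 868 and 794. All 6 ascites libraries lay below the controls of their own line, and every CAOV3 library lay above every TOV21G library. A normalised count is a read count divided by 1 size factor per library.

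The group means of SCD stood in 1 order with no overlap between neighbours. Untreated CAOV3 had 43678 ± 1479 (SD, n = 3), CAOV3 with ascites 32399 ± 512, untreated TOV21G 1681 ± 76.8 and TOV21G with ascites 859 ± 61.6. With ascites the mean was 25.8% lower in CAOV3, a log2 fold change of -0.43 (SE 0.05), and 48.9% lower in TOV21G, a log2 fold change of -0.97 (SE 0.05). The difference between the responses, TOV21G minus CAOV3, was -0.54 (SE 0.07) on the log2 scale. In untreated cells the level in TOV21G was 26-fold below that in CAOV3 (log2 difference -4.70, SE 0.05). Less SCD RNA in each cell and fewer cells that carry it cannot be told apart in bulk libraries.

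**Figure D1:**
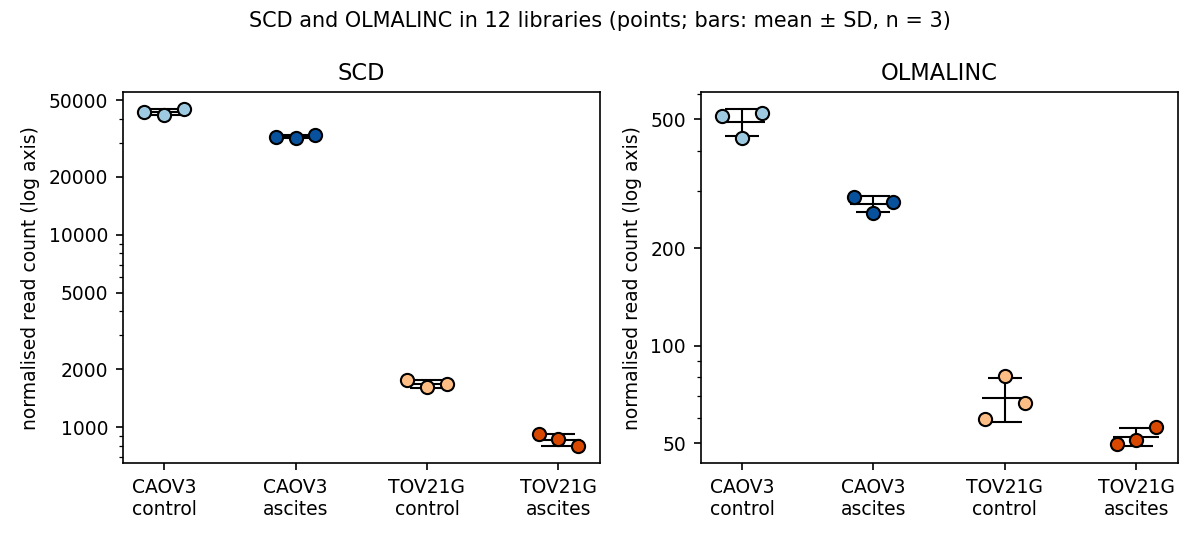
Normalised read counts of SCD (left) and OLMALINC (right) on log axes in the 4 groups; points are the 12 libraries and bars give the mean ± SD of 3 libraries. Both genes were highest in untreated CAOV3 and lowest in TOV21G with ascites, and within each line no ascites library reached the lowest control.

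OLMALINC took the same order at much lower counts. The untreated CAOV3 libraries held 512, 438 and 525 normalised counts, and the ascites libraries 288, 257 and 277. The untreated TOV21G libraries held 59.6, 80.7 and 66.4, and the ascites libraries 49.7, 51.3 and 56.4. Again no ascites library reached the lowest control of its line, although in TOV21G the highest ascites library and the lowest control were only 56.4 and 59.6.

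The means of OLMALINC were 491 ± 46.8 in untreated CAOV3, 274 ± 15.8 with ascites, 68.9 ± 10.8 in untreated TOV21G and 52.5 ± 3.48 with ascites (SD, n = 3 each). The ascites mean was 44.3% lower in CAOV3 (log2 fold change -0.84, SE 0.12) and 23.9% lower in TOV21G (log2 fold change -0.38, SE 0.12). The difference between these responses was 0.46 (SE 0.17), opposite in sign to that of SCD. Untreated TOV21G stood 7.13-fold below untreated CAOV3 (log2 difference -2.82, SE 0.12). So the line with the larger fold response was TOV21G for SCD and CAOV3 for OLMALINC.

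The precision of these values differed between the genes. SCD rested on 29479 to 45610 reads in CAOV3 libraries and 887 to 1866 in TOV21G, whereas OLMALINC rested on 251 to 530 and on 55 to 77 reads. In untreated TOV21G the counting of reads alone would give OLMALINC a relative error of 12.1% per library, and the observed spread was 15.6%. For its TOV21G response, counting alone gave a standard error of 0.15 on the log2 scale, larger than the 0.12 of the fit, which shares 1 estimate of spread over both lines.

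Both contrasts entered the choice of the genes, so the place of these changes among all genes is a description. Ascites libraries that all lay below the controls were seen for 12.8% of tested genes in CAOV3 and 6.99% in TOV21G. In CAOV3, 974 of 17616 tested genes had a more negative log2 fold change than SCD, and 201 had one more negative than OLMALINC. In TOV21G 64 genes had a more negative change than SCD and 752 than OLMALINC. The median log2 fold change of all tested genes was 0.00 in CAOV3 and -0.02 in TOV21G.

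Levels of the genes can be compared per kilobase of annotated exon. By this measure untreated CAOV3 had 8146 ± 276 normalised counts per kb of SCD, the 93rd highest of 19223 genes with a length, and 63.3 ± 6.03 of OLMALINC. Untreated TOV21G had 313 ± 14.3 per kb of SCD, rank 4562, and 8.88 ± 1.39 of OLMALINC. OLMALINC per kb was 0.776% of SCD in untreated CAOV3 and 2.85% in untreated TOV21G.

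The count of OLMALINC as a share of that of SCD moved in opposite directions with ascites. In CAOV3 it was 1.17%, 1.04% and 1.16% in the controls and 0.892%, 0.803% and 0.841% with ascites. In TOV21G it was 3.39%, 5.02% and 3.97% in the controls and 5.42%, 5.91% and 7.1% with ascites. The groups did not overlap in either line. On the log2 scale the ratio was lower with ascites by -0.41 (SE 0.07) in CAOV3 and higher by 0.59 (SE 0.20) in TOV21G, a difference between the lines of 1.00 (SE 0.21). This ratio does not depend on how the libraries were scaled.

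**Figure D2:**
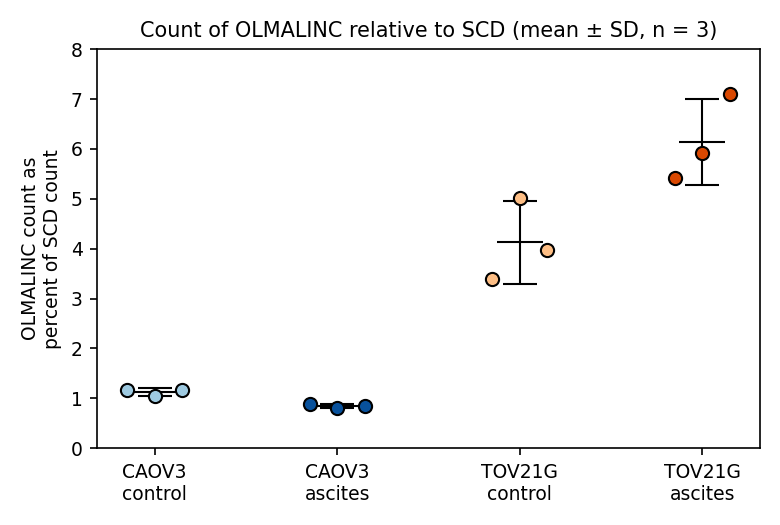
OLMALINC normalised count as a percent of the SCD normalised count in each of the 12 libraries (points), with the mean ± SD of 3 libraries per group. The share is lower with ascites in CAOV3 and higher with ascites in TOV21G.

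Whether the genes also varied together among replicates of the same condition was asked with values centred on each group's mean, which the choice of the genes did not use. Over the 12 libraries Pearson's r was -0.42 (exact permutation of libraries within groups, 1296 arrangements, two-sided p = 0.245, adjusted over 3 tests p = 0.245) and Spearman's rho was -0.37 (exact p = 0.327, adjusted p = 0.327). Without the 2 libraries farthest from the median of SCD, TOV21G ascites replicates 1 and 3, r was -0.29 (exact p = 0.662). The sign differed between the lines. In the 6 CAOV3 libraries r was 0.82 (exact p = 0.167, adjusted p = 0.245) and rho 0.77 (exact p = 0.194, adjusted p = 0.292). In the 6 TOV21G libraries r was -0.81 (exact p = 0.0278, the smallest that 36 arrangements allow, adjusted p = 0.0833) and rho -0.83 (exact p = 0.0556, adjusted p = 0.167). None of the 3 tests passed after adjustment.

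In CAOV3, 5 of 6 libraries lay on the same side of their group mean for both genes. In TOV21G, 1 of 6 did. TOV21G control replicate 2 was lowest of its group in SCD (1607) and highest in OLMALINC (80.7), and ascites replicate 3 was likewise lowest in SCD (794) and highest in OLMALINC (56.4).

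**Figure D3:**
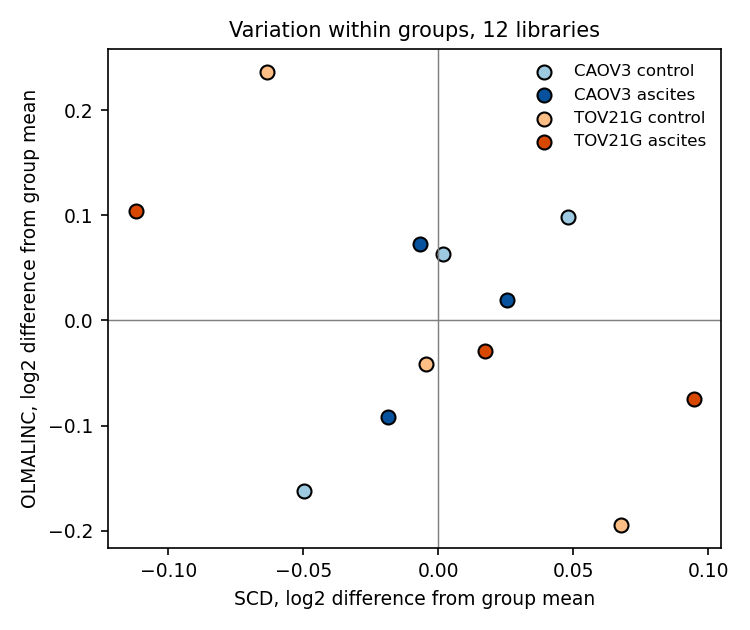
Log2 difference from the group mean of SCD (horizontal) and of OLMALINC (vertical) in 12 libraries, coloured by group. CAOV3 libraries lie mostly at lower left and upper right, and TOV21G libraries mostly at upper left and lower right.

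Nuclear-retained RNAs varied strongly between the TOV21G libraries, in part along with this pattern. MALAT1, an abundant RNA of nuclear speckles, had 14363, 36224 and 22591 normalised counts in the untreated TOV21G libraries and 37574, 21436 and 66860 with ascites, against 19062 to 22325 over all CAOV3 libraries. KCNQ1OT1, a nuclear antisense RNA, had 95.4, 656 and 234 in the controls and 731, 235 and 1511 with ascites. The control with the most of both was replicate 2 and the ascites library with the most was replicate 3, the same libraries that were highest in OLMALINC and lowest in SCD within their groups. The other ascites libraries ran the other way: replicate 1 had more of both RNAs than replicate 2, yet less OLMALINC (49.7 against 51.3) and more SCD (916 against 868). The share of mitochondrial transcripts was 1.77% and 1.49% in these libraries, the lowest of their groups, where the others had 1.61% to 2.71%. Neither RNA was called in either line, with limma adjusted p values of 0.556 and 0.54 in TOV21G. The part of this variation in the OLMALINC values was not tested.

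The other genes of the locus were not selected on their values. Of the 21 other genes annotated within 250 kb of the pair, 9 were listed and 7 had enough signal to test, and 0 of 7 were called in either line, where the calls over all tested genes came to 1.73% in CAOV3 and 0.409% in TOV21G. The lowest adjusted p among them was 0.326 in CAOV3 and 0.755 in TOV21G (limma), and edgeR and DESeq2 also called 0. At an unadjusted p under 0.05 limma counted 2 of them in CAOV3 and 0 in TOV21G. Their log2 fold changes ran from -0.23 to 0.37 in CAOV3 and from -0.05 to 0.24 in TOV21G.

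ERLIN1, whose product is an endoplasmic reticulum membrane protein that takes part in the degradation of proteins there, had 2101 ± 54.1 normalised counts in CAOV3 controls and 2205 ± 82.4 with ascites. In TOV21G it had 5028 ± 117 and 5143 ± 237. BLOC1S2, a subunit of a lysosomal trafficking complex and the nearest tested gene upstream of SCD, had log2 fold changes of 0.08 (SE 0.05) and -0.05 (SE 0.05). CHUK, the kinase subunit IKK alpha, had 0.05 (SE 0.05) and 0.04 (SE 0.05), and HIF1AN, an oxygen-dependent hydroxylase that inhibits HIF, had -0.02 (SE 0.04) and -0.03 (SE 0.04). CWF19L1 had 0.10 (SE 0.04) and -0.04 (SE 0.04).

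The least precise were SEC31B, at 56.7 counts in CAOV3 controls, with -0.23 (SE 0.23) and 0.24 (SE 0.23), and NDUFB8, a subunit of mitochondrial complex I, with 0.37 (SE 0.17) and -0.02 (SE 0.17). NDUFB8 overlaps HIF1AN and AL133352.1, so its count is uncertain. CHUK-DT and SNORA12 averaged under 10 in every group and were not tested. Between the untreated lines, 5 of the 7 neighbours differed against 82.2% of all tested genes, with log2 differences from -0.34 for CHUK to 2.28 for SEC31B, and 1 of them (CHUK) was lower in TOV21G.

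**Figure D4:**
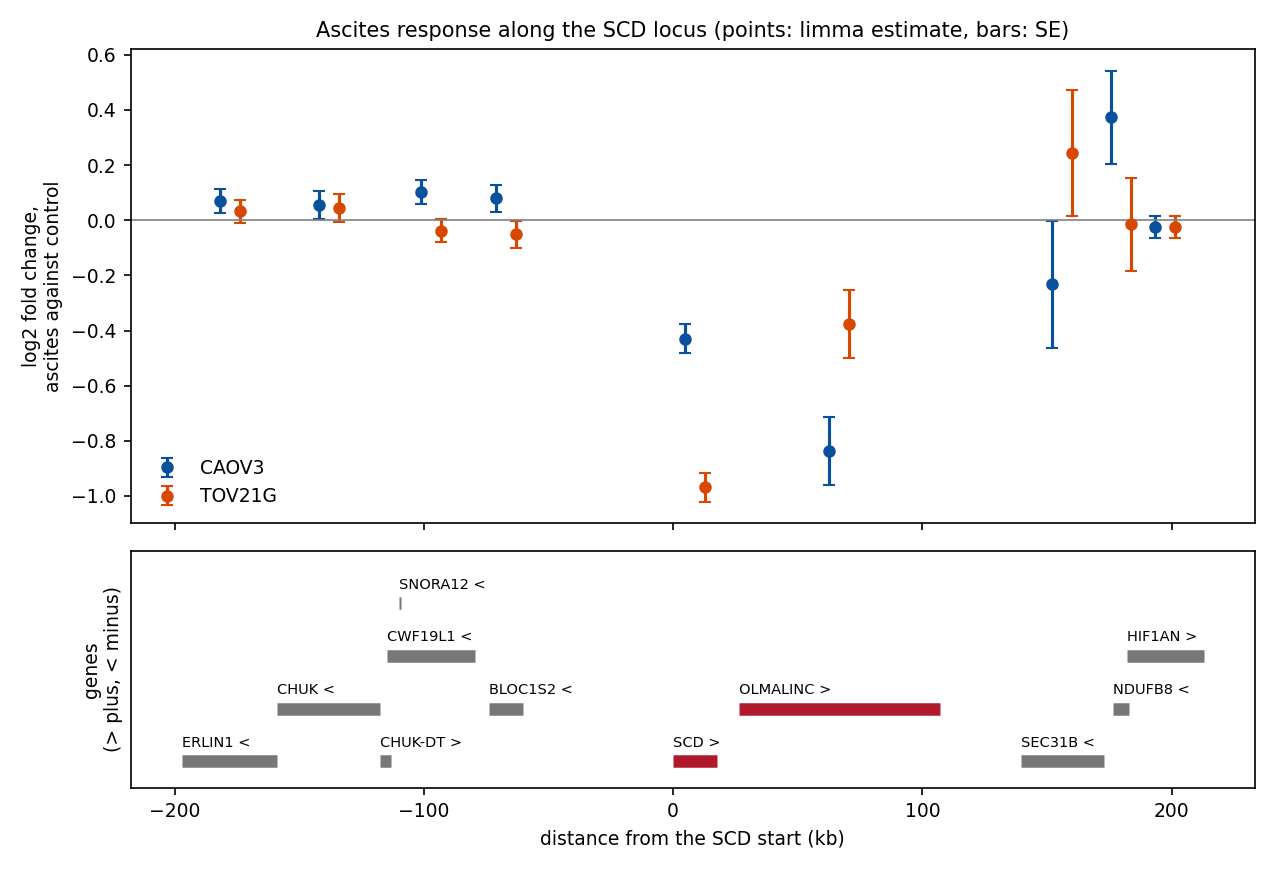
Upper panel: log2 fold change with ascites (limma estimate, bars give the SE) of SCD, OLMALINC and the 7 tested neighbours in both lines, by position relative to the SCD start, the lines set slightly apart; lower panel: the listed genes with their strand. SCD and OLMALINC lie below the line of no change in both cell lines, and the neighbours lie between -0.23 and 0.37.

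The genes that serve the same lipid pathway were described from 8 lists with 92 symbols, of which 87 were listed and 86 tested. SCD and OLMALINC are in none of them. The lists were chosen with earlier results known, so their counts are no independent evidence. Several genes named from them, among them SREBF1, STARD4 and MVK, and FADS1 with FADS2, overlap an annotated gene on the opposite strand, so their counts may hold some of its reads. In CAOV3, 22 of the 86 fell and 2 rose, where 1.10% of all tested genes fell and 0.636% rose. In TOV21G, 15 fell and 0 rose, where 0.267% and 0.142% did, and 13 fell in both lines. Of all tested genes at most 0.267%, the share that fell in TOV21G, can have fallen in both. The median log2 fold change of the 86 was -0.10 in CAOV3 and -0.08 in TOV21G. The count of 22 was 14 without CAOV3 ascites replicate 2. That of 15 was 9 and 6 without TOV21G control replicates 1 and 3, and 8 without either ascites replicate 1 or 3 of that line. It was also 6 with TOV21G fitted alone, where SREBF1, MID1IP1, ACSL3, MSMO1 and FDFT1 were among the calls lost in that line.

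Among 7 genes of SREBP processing, the same 3 fell in both lines. Of all tested genes 1.10% fell in CAOV3 and 0.267% in TOV21G. SREBF1 encodes the SREBP most tied to fatty acid synthesis. It had 4772, 4648 and 4590 counts in CAOV3 controls and 3711, 3663 and 3844 with ascites (log2 fold change -0.32, SE 0.04, limma adjusted p = 0.00125). In TOV21G it had 1733, 1682 and 1659.9, and 1363, 1482 and 1351 with ascites (-0.27, SE 0.04, adjusted p = 0.0135). SREBF2, tied more to cholesterol synthesis, fell by 0.34 and 0.39 on the log2 scale (SE 0.04 in both, adjusted p = 0.000476 and 0.000521). INSIG1, which holds the SREBPs in the membrane and is itself one of their targets, fell by 0.87 and 0.55 (SE 0.05 in both, adjusted p = 8.27e-07 and 0.000199). SREBF1 in TOV21G lost its call without control replicate 3, ascites replicate 1 or ascites replicate 3 of that line (highest of these adjusted p = 0.0675). It also lost it with TOV21G fitted alone (adjusted p = 0.156) and with a replicate block (adjusted p = 0.177). SCAP, INSIG2, MBTPS1 and MBTPS2 were not called in either line.

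The substrates of SCD are made by the fatty acid synthesis genes. Of 11 tested genes of fatty acid synthesis, 2 fell in CAOV3 and 1 in TOV21G. The shares of all tested genes that fell were 1.10% and 0.267%. FASN, the fatty acid synthase, fell in CAOV3, where controls had 21665 ± 659 and ascites libraries 18512 ± 149 (-0.23, SE 0.04, adjusted p = 0.018). In TOV21G its values were 9398 ± 465 and 8517 ± 163 (-0.14, SE 0.04, adjusted p = 0.317). ACACB, an acetyl-CoA carboxylase, fell in CAOV3 (-0.36, SE 0.07, adjusted p = 0.0266), and MID1IP1, an activator of acetyl-CoA carboxylase, fell in TOV21G (-0.47, SE 0.08, adjusted p = 0.0226). FASN and ACACB each lost the call in 5 of 12 fits that left out 1 library: the count of 2 was 0 without CAOV3 control replicate 1 or without any 1 of the 3 CAOV3 ascites libraries, and 1 without control replicate 2 or 3. The call of MID1IP1 was lost without TOV21G control replicate 1 or 3 (highest of these adjusted p = 0.101). It was also lost with TOV21G fitted alone (adjusted p = 0.139) and with a replicate block (adjusted p = 0.128).

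Of the other desaturases, 2 of 5 tested genes fell in CAOV3 and 0 in TOV21G by limma. Among all tested genes 1.10% and 0.267% fell. In TOV21G, 2 of the 5 had an unadjusted limma p under 0.05, with 0 calls by edgeR and 2 by DESeq2. FADS2, the delta-6 desaturase, which can also act on palmitate, had 2770.3, 2679 and 2836 counts in CAOV3 controls and 1942, 1716 and 1986 with ascites (log2 fold change -0.56, SE 0.06, adjusted p = 0.000334). In TOV21G it had 9303 ± 418 and 7947 ± 537 (-0.23, SE 0.06, adjusted p = 0.198). FADS1, the delta-5 desaturase, fell in CAOV3 (-0.32, SE 0.04, adjusted p = 0.000614) and in TOV21G had -0.15 (SE 0.04, adjusted p = 0.138). The difference between the lines was not called for FADS2 (0.33, SE 0.09, adjusted p = 0.162) or FADS1 (0.16, SE 0.05, adjusted p = 0.275). DESeq2 on the recovered reads called both in TOV21G (adjusted p = 0.0136 and 0.0353).

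SCD5, the other human stearoyl-CoA desaturase, had the opposite distribution over the lines. It averaged 9.79 ± 3.03 counts in untreated CAOV3 and 408 ± 49.5 in untreated TOV21G (log2 difference 5.28, SE 0.22, adjusted p = 3.4e-11), where SCD was 26-fold lower than in CAOV3. Per kb of exon the controls had 2.28 of SCD5 against 8146 of SCD in CAOV3, and 95.1 of SCD5 against 313 of SCD in TOV21G. With ascites SCD5 was not called in CAOV3 (-0.36, SE 0.22, adjusted p = 0.541) or in TOV21G (-0.09, SE 0.22, adjusted p = 0.937).

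The proteins that carry electrons to SCD, cytochrome b5 and its reductases, were not called: 0 of 6 genes in either line by limma, edgeR or DESeq2, with medians of 0.04 and -0.04 and 0 at an unadjusted limma p under 0.05. Over all tested genes limma called 1.73% in CAOV3 and 0.409% in TOV21G, so 0 of 6 says little about this short list. CYB5B had 6679 ± 73.2 and 6250 ± 129 in CAOV3 and 3996 ± 253 and 3857 ± 132 in TOV21G.

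Of 15 tested genes that activate fatty acids or place them in lipids, 2 fell and 1 rose in CAOV3 and 1 fell in TOV21G. Over all tested genes, 1.10% fell and 0.636% rose in CAOV3, and 0.267% fell in TOV21G. ACSL3, an acyl-CoA synthetase of lipid droplets, fell in both lines (-0.29, SE 0.05, adjusted p = 0.00805, and -0.26, SE 0.05, adjusted p = 0.0378). LPIN1, a phosphatidate phosphatase, fell in CAOV3 (-0.29, SE 0.05, adjusted p = 0.0131), and PLIN3, a lipid droplet coat protein, rose there (0.30, SE 0.05, adjusted p = 0.0094). The call of ACSL3 was lost without CAOV3 ascites replicate 2 in CAOV3 (adjusted p = 0.0501) and in 8 of 12 fits without 1 library in TOV21G (adjusted p = 0.161 without TOV21G ascites replicate 3). LPIN1 lost its call in 4 such fits (adjusted p = 0.0671 without CAOV3 ascites replicate 3).

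The cholesterol genes, which share the SREBPs with SCD, held most of the calls: 12 of 23 fell in CAOV3, 10 in TOV21G and 9 in both. Of all tested genes 1.10% fell in CAOV3 and 0.267% in TOV21G, and at most 0.267% in both. IDI1 and MSMO1, of the isoprenoid and sterol steps, fell in both lines by 0.48 and 0.50 and by 0.45 and 0.34 on the log2 scale, although the TOV21G call of MSMO1 was lost in 4 of 12 fits without 1 library (adjusted p = 0.101 without TOV21G control replicate 3). The count of 10 in TOV21G was 4 with that line fitted alone and 4 without TOV21G control replicate 3. It was 5 without control replicate 1, ascites replicate 1 or ascites replicate 3 of TOV21G and 6 without any 1 of the CAOV3 ascites libraries.

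STARD4, a cholesterol transfer protein, had the larger estimate in CAOV3, as OLMALINC did, with -0.72 (SE 0.08, adjusted p = 0.000293) in CAOV3 and -0.40 (SE 0.08, adjusted p = 0.0451) in TOV21G, although the difference between the lines was not called (0.32, SE 0.11, adjusted p = 0.303). Over all tested genes 0.545% were called for such a difference. Its TOV21G call was lost in 10 of 12 fits without 1 library (highest of these adjusted p = 0.178, without TOV21G control replicate 3). It was also lost with TMM or upper-quartile scaling and with a replicate block (adjusted p = 0.216 with the block). MVK, mevalonate kinase, fell in CAOV3 (-0.59, SE 0.09, adjusted p = 0.0033) and had -0.42 (SE 0.09, adjusted p = 0.0775) in TOV21G.

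**Figure D5:**
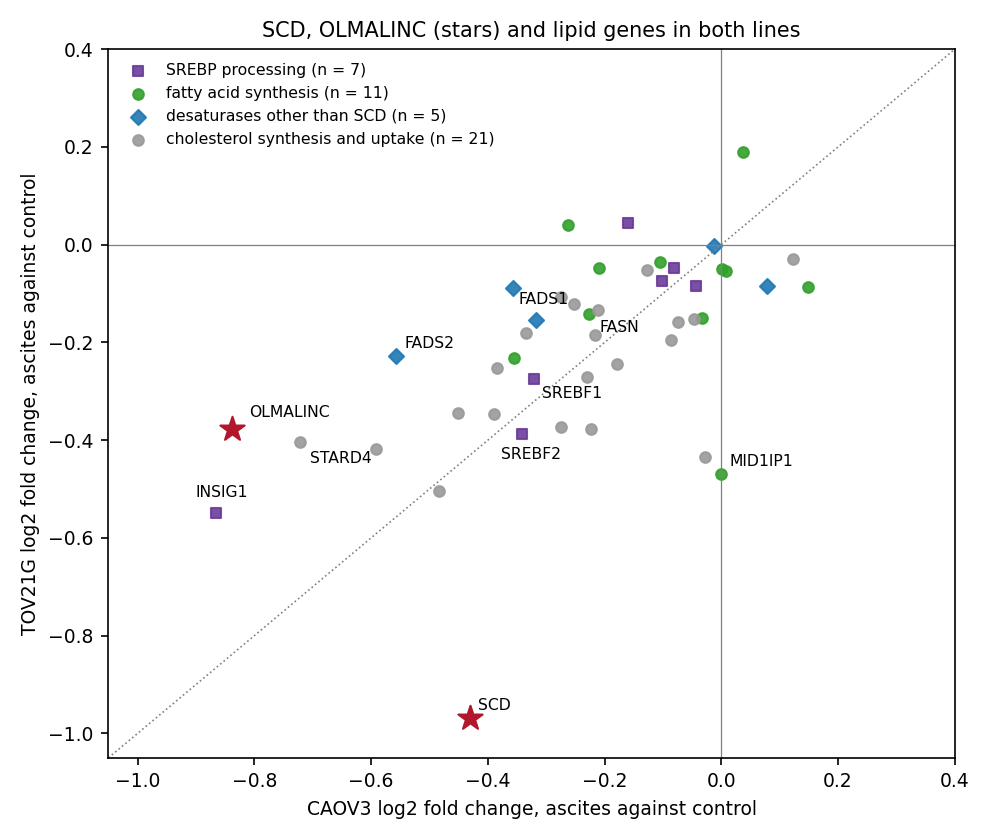
Log2 fold change with ascites in CAOV3 (horizontal) and TOV21G (vertical) of SCD and OLMALINC (stars) and of genes of 4 lists, without those not reported here; the dotted line marks equal change. SCD lies below the line, with the larger change in TOV21G, and OLMALINC lies above it near STARD4, with the larger change in CAOV3.

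Other regulators of SCD were followed through the targets of the nuclear receptors. Of 8 liver X receptor genes and targets, 0 were called in either line by limma, edgeR or DESeq2, with medians of -0.05 in CAOV3 and -0.01 in TOV21G and with 2 and 1 at an unadjusted limma p under 0.05. Since limma called 1.73% of all tested genes in CAOV3 and 0.409% in TOV21G, 0 of 8 says little about these genes. ABCA1, a cholesterol exporter and classical target, had 733 and 698 counts in CAOV3 control and ascites means and 26.6 and 28.3 in TOV21G. The targets ABCG1 and SMPDL3A averaged 1.38 and 1.76 and 7.55 and 3.78 in TOV21G, too few counts for a call to be likely. Of 11 PPAR genes and targets, which respond to fatty acids, 1 rose and 1 fell in CAOV3. There 0.636% of all tested genes rose and 1.10% fell. In TOV21G 0 were called by limma, edgeR or DESeq2 (0 at an unadjusted limma p under 0.05). One of them, FABP4, averaged 0 in both TOV21G groups and could not be called there. ANGPTL4, an inhibitor of lipoprotein lipase, rose from 803 ± 38.2 to 1132 ± 24.3 (0.50, SE 0.06, adjusted p = 0.000509).

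Genes whose pattern over the 12 libraries was most like that of each member were ranked by Pearson's r of log2 values centred within each line, over 11885 genes with a mean of at least 100. This likeness is mostly set by the ascites response, which chose the members, and has no test. Of the first 5 for SCD, those reported here were SAMD11 (r = 0.985), FDPS (0.958), FDFT1 (0.956) and PTK2 (0.953). FDPS and FDFT1 belong to cholesterol synthesis, and PTK2 encodes focal adhesion kinase. For OLMALINC they were MIA3 (0.956), STARD4 (0.955), LPIN1 (0.947), AFG1L (0.944) and HR (0.940). SCD and OLMALINC had an r of 0.673 with each other, which put OLMALINC at place 577 for SCD and SCD at place 597 for OLMALINC.

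SAMD11, first for SCD, fell in TOV21G from 3109 ± 125 to 1965 ± 106 (-0.66, SE 0.05, adjusted p = 6.11e-05) and in CAOV3 (-0.32, SE 0.05, adjusted p = 0.00536), and the difference was not called (-0.34, SE 0.07, adjusted p = 0.064). FDFT1, squalene synthase, fell in both lines (-0.27 and -0.37, SE 0.05 in both). Its CAOV3 call was lost in 4 of 12 fits without 1 library (adjusted p = 0.0662 without CAOV3 ascites replicate 1). Its TOV21G call was lost with that line fitted alone (adjusted p = 0.0872). Both calls were lost with a replicate block (adjusted p = 0.114 in CAOV3 and 0.111 in TOV21G). FDPS, at -0.07 (SE 0.03) and -0.16 (SE 0.03), and PTK2, at -0.07 (SE 0.03) and -0.14 (SE 0.03), were not called. For OLMALINC, HR, a corepressor of nuclear receptors, fell in CAOV3 (-0.87, SE 0.10, adjusted p = 0.00063) and had -0.43 (SE 0.10, adjusted p = 0.133) in TOV21G. MIA3, a cargo receptor of the endoplasmic reticulum, fell in CAOV3 (-0.28, SE 0.04, adjusted p = 0.0029) and had -0.08 (SE 0.04) in TOV21G, and AFG1L had -0.25 (SE 0.08) and -0.08 (SE 0.08), called in neither line.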

How the data were processed

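RNA was sequenced from 12 libraries of established cell lines, 3 in each of 4 groups, named by their titles. The submitters' processing notes name Trim Galore, cutadapt, STAR, HTSeq and DESeq without versions. The genome build, annotation and strandedness are not given in the sources used here. The deposited signal of each gene is a normalised read count: multiplied by 1 size factor per library, all values came out as whole reads within 0.1 read. These factors match the median-of-ratios recomputed over all 12 libraries.

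The comparison used log2(value + 1) and limma 3.58.1 (trended variance, 1 mean per group, all 12 libraries) on 17616 genes with at least 10 in at least 3 libraries. A gene was called at a Benjamini-Hochberg adjusted p under 0.05 over all of them, so p-values printed for named genes are limma's unless another tool is named. Fold changes are on this log2 scale, which understates those of low genes. edgeR 4.0.16 and DESeq2 1.42.0 on the recovered reads, other pseudocounts, filters and scalings, each line alone, a replicate block and the omission of each library were alternatives. The limma step was tested on simulated data. Exon lengths and positions are from GENCODE 29 (GRCh38).

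Genes were named by rule: the neighbours within 250 kb, up to 6 called genes per list by size of change, SREBF1, SREBF2, FASN, SCD5 and FADS2, and the 5 genes most like each member. CYB5B, ABCA1, ABCG1, SMPDL3A, FABP4, MALAT1, KCNQ1OT1, the marker genes and uncalled SREBP processing genes were named after their values were seen. The members and lists were chosen with earlier results of these data known. Same-numbered replicates did not deviate together (correlations from -0.417 to 0.073), so the numbers were not used as pairs. Some genes that these rules name are not reported here, though the counts of lists include them.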

Additional observations from a re-analysis of the deposited data

Results flagged for a closer look

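The ascites response differed between the lines, by limma's test of the difference over all 17616 genes, for 2 of the genes that the naming rule gave and that are reported here. SCD and OLMALINC were left out of this count, because no test of them is reported. Values are TOV21G minus CAOV3 on the log2 scale. ANGPTL4 differed by -0.54 (SE 0.08, adjusted p = 0.0104), with 803 ± 38.2 and 1132 ± 24.3 normalised counts (SD, n = 3) in CAOV3 control and ascites libraries and 1488 ± 87.8 and 1447 ± 89.6 in TOV21G. PLIN3 differed by -0.38 (SE 0.07, adjusted p = 0.0394), with 3308 ± 55 and 4079 ± 62.8 in CAOV3 and 4105 ± 190 and 3887 ± 315 in TOV21G. When each library was left out in turn, PLIN3 missed the threshold in 10 of the 12 fits (highest adjusted p = 0.128, without CAOV3 ascites replicate 3). ANGPTL4 kept its call in all 12, but neither gene kept it in the fit with a replicate block (adjusted p = 0.131 for ANGPTL4 and 0.309 for PLIN3). KRT8, an epithelial keratin named only as a marker, also differed, by -0.41 (SE 0.08, adjusted p = 0.0483).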

How the results depend on the processing

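The fold changes of SCD and OLMALINC, their differences between lines and the changes of their ratio kept their sign under every alternative run. Without 1 library at a time, the log2 fold change of SCD ran from -0.46 to -0.41 in CAOV3 and from -1.02 to -0.91 in TOV21G, and that of OLMALINC from -0.92 to -0.79 and from -0.48 to -0.26. The difference between lines ran from -0.59 to -0.48 for SCD and from 0.36 to 0.58 for OLMALINC, and the ratio change from -0.46 to -0.37 in CAOV3 and from 0.46 to 0.74 in TOV21G. With 55 to 77 reads per library, counting limits OLMALINC in TOV21G.

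The counts of pathway genes moved more. With each line fitted alone, 5 rose in CAOV3 (2 with all libraries) and 6 fell in TOV21G (15 with all libraries). Without 1 library the falls ranged from 14 to 23 in CAOV3 and from 6 to 15 in TOV21G. With edgeR 25 and 16 fell, and with DESeq2 25 and 21. With the replicate block, 1 rose and 15 fell in CAOV3 (22 in the main fit) and 4 fell in TOV21G. The differences between lines of ANGPTL4 and PLIN3 were not called. FASN, ACACB, LPIN1, ACSL3, PLIN3, SAMD11 and FDFT1 were among the genes that lost their CAOV3 calls there. The correlation of the pair within groups, -0.42 over 12 libraries, was 0.82 in CAOV3 alone and -0.81 in TOV21G alone, and from -0.69 to -0.20 without 1 library. The cause was not tested.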
